A study of Mus musculus with 6 samples.

Results

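The genes examined were 10 receptors and ligands of the vascular endothelial growth factor (VEGF), angiopoietin and fibroblast growth factor (FGF) pathways, *Kdr*, *Flt1*, *Flt4*, *Tek*, *Tie1*, *Vegfa*, *Vegfc*, *Pgf*, *Angpt2* and *Fgfr1*. Differentially methylated regions (DMRs) were assigned to a gene when their midpoint lay in the RefSeq gene body (mm10) or within 10 kb to either side. This rule found 34 of 18333 listed DMRs, at 9 of the 10 genes, and did not use the size or direction of the methylation change. The DMRs came from T-WGBS, a form of whole genome bisulfite sequencing in which a transposase fragments the DNA and attaches adaptors, and bisulfite converts unmethylated cytosines so that methylated CpGs can be counted. Sorted lung endothelial cells (EC) of C57BL/6N mice were compared between infants of 8 to 10 days (3 samples) and young adults of 8 to 12 weeks (3 samples), all without genetic modification or treatment in the labels. The methods describe female mice and a sort for live CD31+ CD34+ cells that lacked PTPRC, LYVE1, LY76 and PDPN, and the samples came from 3 mice of each age. The endothelial identity was taken from this sort, since no expression of marker genes was analysed.

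For each DMR the list held the authors' mean methylation of each age group, averaged over the CpGs of the DMR and the 3 samples. No values per sample and no read depth per DMR were analysed, so that the values below carry no replicate error and no p-value. Every listed DMR had passed the authors' test between the same samples, and the comparison asked how methylation at these genes differed as the lung vasculature passed from growth to the resting adult state. Differences are given as young adult minus infant, in percentage points, and a negative value is called a loss and a positive value a gain of methylation. A change in each cell and a shift in the mixture of sorted EC subtypes cannot be told apart in a group mean.

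VEGF ligands bind receptor tyrosine kinases on EC. KDR (VEGFR2) transmits most of the growth signal of VEGFA, FLT1 (VEGFR1) binds VEGFA and PGF tightly with weak kinase activity and limits the ligand available to KDR, and FLT4 (VEGFR3) is the receptor of VEGFC with a main role in lymphatic vessels and sprouting. Angiopoietins act through TEK (TIE2), with TIE1 as a coreceptor, and control the stability of vessels. FGFR1 is a receptor of several FGFs. In the lung, capillary growth continues after birth and largely ceases in the adult. DNA methylation within a gene can mark transcribed exons as well as intronic regulatory elements, and methylation near a transcription start site (TSS) is often associated with silencing.

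The sequences below are those of the DMRs with the largest change at the genes the results turn on (for *Flt1* the second largest loss, since the largest lies in a UTR), together with the gain upstream of *Flt1* and a *Kdr* exon that shares a motif with *Fgfr1*. They were read from the plus strand of the RefSeq GRCm38 (mm10) genome, from the first to the last CpG of the DMR. Capitals mark the CpGs of the reference, and whether each of them entered the averaged methylation is unknown.
Kdr exon 10 (chr5:75962832-75962900): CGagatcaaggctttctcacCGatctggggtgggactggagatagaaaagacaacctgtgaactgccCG
Kdr exon 13 (chr5:75959328-75959374): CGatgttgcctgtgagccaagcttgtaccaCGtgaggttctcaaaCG
Flt1 intron 10 (chr5:147668985-147669123): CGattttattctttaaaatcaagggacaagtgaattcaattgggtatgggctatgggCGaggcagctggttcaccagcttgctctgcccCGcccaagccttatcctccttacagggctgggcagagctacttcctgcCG
Flt1 upstream (chr5:147727220-147727307): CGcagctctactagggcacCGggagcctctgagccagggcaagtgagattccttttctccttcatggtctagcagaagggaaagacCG
Tek exon 12 (chr4:94837186-94837292): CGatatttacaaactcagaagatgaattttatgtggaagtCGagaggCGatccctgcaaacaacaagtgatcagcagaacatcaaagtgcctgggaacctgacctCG
Vegfa intron 2 (chr17:46026209-46026244): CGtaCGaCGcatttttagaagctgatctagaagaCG
Pgf intron 1 (chr12:85176102-85176135): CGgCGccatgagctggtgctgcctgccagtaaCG
Angpt2 upstream (chr8:18742223-18742480): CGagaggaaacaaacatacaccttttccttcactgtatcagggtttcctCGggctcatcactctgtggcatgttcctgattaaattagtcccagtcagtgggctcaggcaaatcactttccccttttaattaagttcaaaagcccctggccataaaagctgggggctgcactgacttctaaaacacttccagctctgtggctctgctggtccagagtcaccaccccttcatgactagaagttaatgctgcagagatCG
Fgfr1 intron 2 a (chr8:25537281-25537352): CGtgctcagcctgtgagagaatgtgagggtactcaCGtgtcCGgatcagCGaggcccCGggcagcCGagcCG
Fgfr1 intron 2 b (chr8:25537424-25537584): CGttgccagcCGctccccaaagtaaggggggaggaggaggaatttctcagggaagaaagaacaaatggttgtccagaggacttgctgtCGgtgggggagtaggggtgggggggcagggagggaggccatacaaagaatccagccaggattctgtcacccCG

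Methylation was lower in young adult EC at 22 of the 34 DMRs (64.7%, 95% Wilson interval 47.9 to 78.5, counting error only) and higher at 12. The interval takes the DMRs as independent, although 15 of them lie at *Flt1* and some are close neighbours. It was therefore not used to compare this share with those of other sets of DMRs. Over all listed DMRs, 45.9% were losses and 54.1% were gains. Among the 14047 DMRs in or within 10 kb of any RefSeq gene body, called gene-associated DMRs here, 53.9% were losses. Of the 4286 DMRs farther from genes, 80.1% were gains. By gene, 4 genes (*Kdr*, *Flt4*, *Tek* and *Vegfa*) held losses, 3 genes (*Vegfc*, *Pgf* and *Fgfr1*) held gains and 2 genes (*Flt1* and *Angpt2*) held both. *Flt4*, *Tek*, *Vegfa* and *Vegfc* held a single DMR each, and *Tie1* held no listed DMR. The receptors of VEGF carried 18 losses and 2 gains, whereas the ligands *Vegfa*, *Vegfc* and *Pgf* carried 1 loss and 5 gains. *Flt1* alone contributed 15 DMRs, and without it the count was 9 losses and 10 gains (47.4% losses). Merging DMRs of like direction at most 500 bp apart left 25, of which 17 were losses and 8 gains. DMRs were listed at 26.6% of 26089 RefSeq genes by the same rule, and at 32.3% of the 13212 genes whose length lay between those of the shortest and the longest of the 10.

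**Figure D1:**
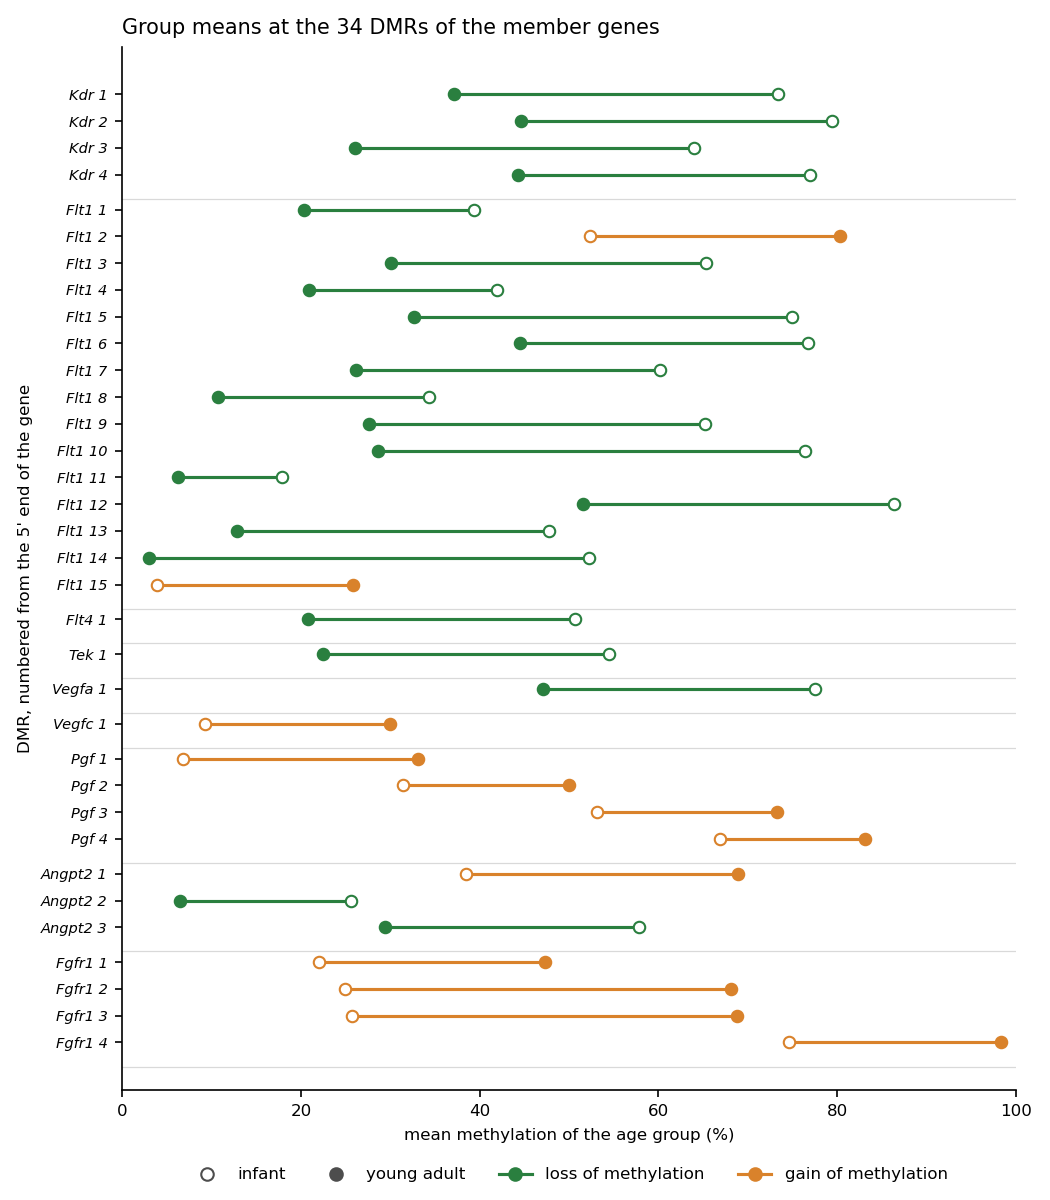
Mean methylation of the infant (open circles) and young adult (filled circles) group at each of the 34 DMRs, in percent, with losses in green and gains in orange; the lines join both groups and no replicate error could be drawn. *Kdr*, *Flt4*, *Tek* and *Vegfa* show only losses and *Vegfc*, *Pgf* and *Fgfr1* only gains.

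The losses had a median of -33.4 percentage points, and the medians of the group means were 62.0% (infant) and 26.9% (young adult). Over all gene-associated losses the median was -32.7, with 61.7% and 25.5%. The gains had a median of 24.5 percentage points, against 21.0 over all gene-associated gains. Their median levels were 28.6% (infant) and 68.5% (young adult), where all gene-associated gains had 51.5% and 75.8%. An infant mean under 50% was found at 8 of the 12 gains (66.7%), compared with 48.0% of the gene-associated gains. A difference of at least 30 percentage points was found at 18 of the 34 DMRs (52.9%), compared with 40.3% of the gene-associated DMRs and 35.1% of all. *Flt1* held 9 of these, and without *Flt1* the share was 9 of 19 (47.4%). Losses were larger than gains in both sets, and this share was not split by direction. Of the losses, 5 (22.7%) fell below 20% in young adult EC, compared with 38.0% of the gene-associated losses, and of the gains, 3 (25%) exceeded 80%, compared with 43.2% of the gene-associated gains. No chance test over regions was made, and these shares, like those of positions, sequence features and gene lists given later, describe the list.

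**Figure D2:**
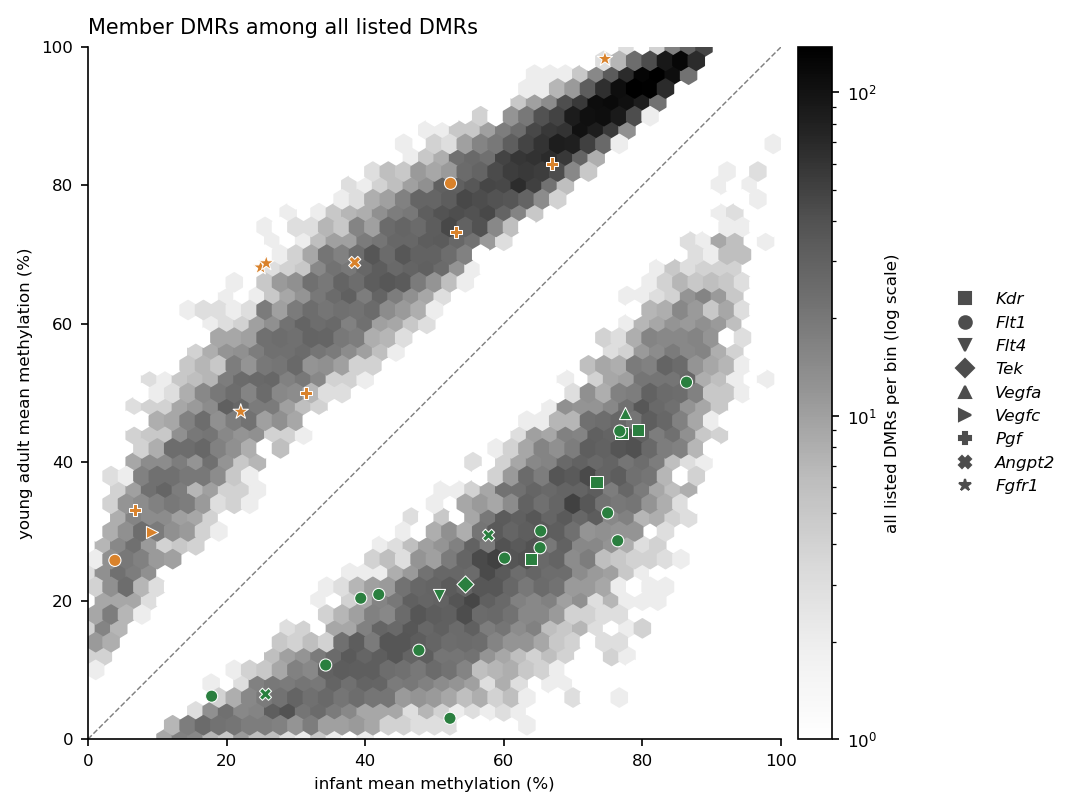
Infant (x axis) against young adult (y axis) mean methylation in percent, with all 18333 listed DMRs as grey bins shaded on a log scale and the 34 DMRs of the VEGF, angiopoietin and FGF genes as coloured symbols by gene. Points below the diagonal are losses and points above it gains; the coloured symbols lie within the range of the grey bins, whose differences reach -78.9 and 64.7 percentage points.

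*Flt1* (chr5:147561604-147726011, minus strand, 164.4 kb) carried 13 losses and 2 gains, and 0.399% of all genes held at least as many DMRs. More than 5 DMRs were held by 2.34% of all genes. The infant mean ranged from 17.8% to 86.4% over the 13 losses, and the young adult mean from 3.0% to 51.6%. The largest loss was a DMR of 4 CpGs in 32 bp (chr5:147638946-147638977), which fell from 52.2% to 3.0% (-49.2). This was also the largest loss of all 34 DMRs. It lies in intron 13 of the full-length transcript of 30 exons, and in the 3′ UTR of a shorter RefSeq transcript that ends after exon 13. Transcripts that end in this intron are known to encode soluble FLT1, a secreted decoy that binds VEGFA without signalling.

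A further loss lay 37 bp away (chr5:147639015-147639192), across the coding end and the 3′ UTR of the same last exon, and fell from 47.8% to 12.8% (-34.9). The third exonic loss was in coding exon 11 (chr5:147655078-147655119), shared by both transcripts, where methylation fell from 86.4% to 51.6% (-34.8). The shorter transcript covers 55.3% of the gene body and 55.9% of its CpGs. Of the 12 losses in the gene body, 12 lay inside it, and the gene body beyond its end held no loss and 1 gain. That gain was in intron 22 (chr5:147580451-147580576), from 3.89% to 25.8% (+21.9).

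The remaining losses of *Flt1* were intronic except for 1 upstream. Intron 1 held a loss 7.36 kb from the TSS, from 65.3% to 30.1%. Intron 3 held 5 losses, of which 3 were separated by 186 and 103 bp and ended at 44.5%, 26.1% and 10.7%. Intron 10 held 3, including a pair 40 bp apart that fell from 65.2% to 27.7% and from 76.4% to 28.7% (-47.8, the *Flt1* intron 10 sequence above). The smallest change of all 34 DMRs was also in intron 10, from 17.8% to 6.20% (-11.6). Upstream of the TSS, neighbouring DMRs moved in opposite directions. The DMR 1252 bp upstream rose from 52.3% to 80.3% (+28.0), the largest gain at the gene, and the DMR 2449 bp upstream fell from 39.4% to 20.4% (-19.0).

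**Figure D3:**
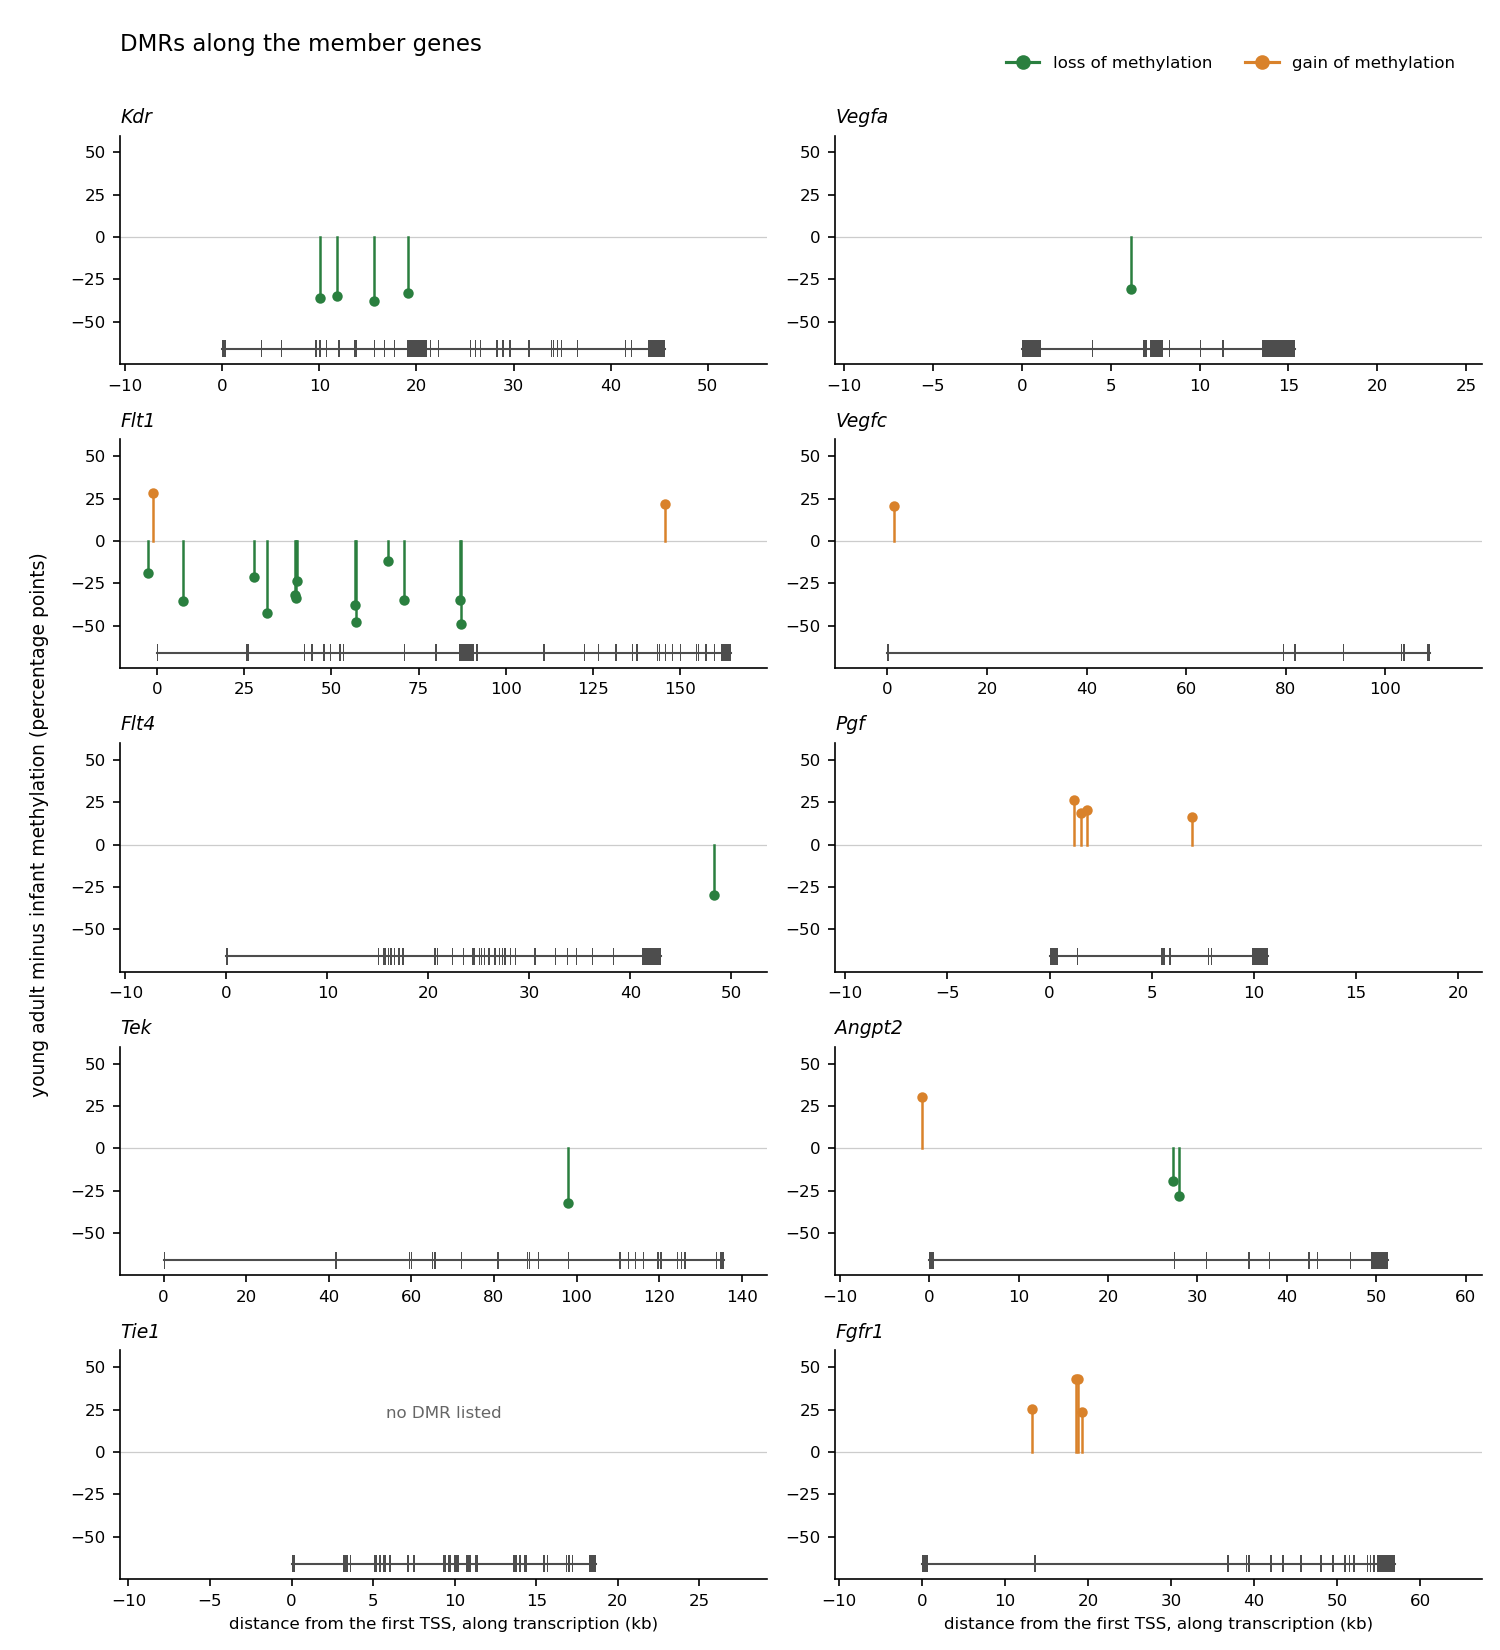
Position of each DMR along the 10 genes (x axis, distance from the first TSS in kb, in the direction of transcription) and its difference of group means (y axis, young adult minus infant, percentage points), with boxes for the exons of all RefSeq transcripts of a gene. The losses of *Flt1* and *Kdr* lie in the 5′ part of the genes, up to the exon at which the shorter transcript of each ends.

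*Kdr* (chr5:75932827-75978455, minus strand, 45.6 kb) carried 4 losses and no gain. At least as many DMRs were held by 4.50% of all genes, and as many losses by 2.33%. The methylation fell from 73.4% to 37.1% in coding exon 5 (chr5:75968261-75968464, -36.2), from 63.9% to 26.0% in coding exon 10 (chr5:75962832-75962900, -37.9) and from 77.0% to 44.2% in coding exon 13 (chr5:75959328-75959374, -32.7). The fourth DMR was in intron 6, 35 bp from an exon, and fell from 79.4% to 44.6% (-34.8). The DMRs of *Kdr* were thus exonic or next to an exon, were spaced 1631 to 3658 bp apart and changed by similar amounts. All 4 lay within the shorter RefSeq transcript of 13 exons, which spans 46.2% of the gene body and 47.6% of its CpGs. They started 10.1 kb from the TSS. *Flt4* (chr11:49609679-49652739, 43.1 kb) held no DMR in its body. Its only DMR lay 5.21 kb past the transcript end (chr11:49657892-49658007) and fell from 50.7% to 20.8% (-29.9). The nearest TSS there is that of *Scgb3a1*, a secretoglobin gene, and the DMR is at position -5646 relative to it.

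Of the 6 DMRs at VEGF ligands, 5 were gains. *Vegfa* (chr17:46016993-46032377, minus strand, 15.4 kb), the main ligand of KDR, held the only loss, from 77.5% to 47.1% (-30.4), in 4 CpGs within 36 bp (chr17:46026209-46026244). This DMR lies in intron 2 of the longer transcripts and at position -1063 relative to the TSS of the 3 shortest of its 10 RefSeq transcripts. *Vegfc* (chr8:54077532-54186454, 108.9 kb), the lymphatic growth factor, gained methylation in intron 1, 1.39 kb from the TSS (chr8:54078751-54079095), from 9.31% to 30.0% (+20.7). With 345 bp this was, with a DMR of *Angpt2*, the widest of the 34.

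*Pgf* (chr12:85166639-85177313, minus strand, 10.7 kb), which encodes placental growth factor, a ligand of FLT1, held 4 gains and had the densest coverage by DMRs of the 10 genes (13.0 per 100 kb including flanks, and 3.0% of the CpGs in this window). At least as many gains were held by 1.58% of all genes. A TSS used by a shorter transcript lies in intron 1, and 3 of the 4 DMRs were within 1 kb of it. The DMR at position -136 (chr12:85176102-85176135) rose from 6.80% to 33.1% (+26.3). The DMR at +221 (chr12:85175674-85175849) rose from 31.4% to 50% (+18.6), and lies in coding exon 2 of the longer and in the 5′ UTR of the shorter transcript. The DMR at +513, in intron 2 (chr12:85175420-85175519), rose from 53.1% to 73.3% (+20.2). Methylation thus increased with distance into the gene in both age groups, and was higher in young adult EC at each position. The last DMR, in intron 4, rose from 66.9% to 83.2% (+16.3).

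The TIE receptor *Tek* (chr4:94739289-94874976, 135.7 kb) held 1 loss, in coding exon 12 (chr4:94837186-94837292), from 54.4% to 22.4% (-32.0). It lay 97.9 kb from the TSS of *Tek* and 91605 bp from that of *Eqtn*, a sperm protein gene, to which a nearest-TSS rule gives it. *Tie1* (chr4:118471191-118489849, 18.7 kb) held none, with 567 CpGs of the reference in the gene and its flanks. Since the depth at these CpGs is unknown, an absent DMR can be an unchanged region or a poorly covered one.

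*Angpt2* (chr8:18690263-18741562, minus strand, 51.3 kb) encodes the angiopoietin released by EC that opposes TEK activation in many settings. A DMR 789 bp upstream of its TSS (chr8:18742223-18742480) gained methylation, from 38.5% to 68.9% (+30.4). The 2 DMRs around exon 2 lost methylation. The DMR with its midpoint in intron 1 that reaches into coding exon 2 (chr8:18714106-18714450) fell from 25.6% to 6.48% (-19.1), and that in intron 2 (chr8:18713483-18713662), 443 bp away, fell from 57.8% to 29.4% (-28.3). The DMR upstream of the TSS and the pair around exon 2 thus differed in direction. *Angpt2* lies inside the body of *Mcph1*, a gene of chromosome condensation, so that its 3 DMRs are also DMRs of *Mcph1*.

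*Fgfr1* (chr8:25518759-25575718, 57.0 kb) held 4 gains and no loss, all in introns 1 and 2. The largest gain of all 34 DMRs was at 7 CpGs in 72 bp of intron 2 (chr8:25537281-25537352), from 24.9% to 68.2% (+43.2). Its neighbour 71 bp away (chr8:25537424-25537584) changed almost identically, from 25.7% to 68.8% (+43.0). Both sequences are printed above and both overlap a CpG island, as does the DMR of intron 1 that rose from 22.0% to 47.3% (+25.3). A CpG island is here any window of 200 bp with at least 50% GC and a ratio of observed to expected CpGs above 0.6. A DMR was counted when such a window overlapped it, even in part. The fourth DMR, 358 bp further on and outside the island, was already at 74.6% in infant EC and reached 98.3% (+23.7). For the last 2 DMRs the nearest TSS is that of the predicted gene *Gm16159*, at 18.6 and 18.1 kb.

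Several DMRs lay in coding sequence. The midpoint was in an exon at 8 DMRs (23.5%, gene-associated DMRs 9.61%) and in a coding exon at 6 (17.6%, gene-associated DMRs 5.96%). Of the 30 DMRs in the body of their own gene, 8 (26.7%) were exonic, compared with 11.1% of all DMRs in a gene body. The exonic DMRs were 3 in *Kdr*, 3 in *Flt1*, 1 in *Tek* and 1 in *Pgf*, and the first 7 of these were losses. Of all 1350 listed DMRs with the midpoint in an exon, 604 were losses and 746 were gains. Of the DMRs in any gene body, exonic or intronic, 57.5% were losses. Within 1 kb of a TSS lay 4 DMRs (11.8%, gene-associated DMRs 5.46%), 3 at *Pgf* and 1 at *Angpt2*, and all 4 were gains. Of all 767 listed DMRs within 1 kb of a TSS, 488 were gains and 279 were losses. The 3 at *Pgf* are neighbours, with gaps of 154 and 252 bp.

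In width, base composition and repeats the values were close to those of the whole list. The median width was 121 bp (range 26 to 345), compared with 126 bp over all DMRs. The windows of 200 bp centred on them had a median GC content of 49.2%, compared with 48.5%. CpG islands were overlapped by 5 (14.7%, all DMRs 13.8%), 3 at *Fgfr1* and 2 at *Flt1*, and annotated repeats by 14 (41.2%, all DMRs 44.8%). A DMR held 3 to 7 CpGs, and 17 DMRs (50%, all DMRs 66.5%) had the minimum of 3.

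Short motifs were counted by their letters on both strands of these windows. The ETS core GGAAG, bound by factors such as ERG and FLI1 in EC, was present at 20 DMRs (58.8%, all DMRs 55.6%). The SMAD motif CAGAC was present at 21 (61.8%, all DMRs 41.5%) and the KLF motif CCACCC at 10 (29.4%, all DMRs 16.0%). The AP-1 motif TGANTCA was found at 2 (5.88%, all DMRs 6.51%), the GATA motif AGATAA at 2 (5.88%, all DMRs 11.7%), the FOX motif TGTTTAC at 3 (8.82%, all DMRs 4.35%) and the SOX motif ACAATG at 1 (2.94%, all DMRs 10.2%). The core ACGTG of the hypoxia response element occurred at 5 (14.7%, all DMRs 15.2%). In the DMRs of *Kdr* exon 13 and *Fgfr1* intron 2 a it occurs on both strands around a CpG of the DMR, within the letters CACGTG. These letters read alike on both strands. Methylation fell in the former DMR and rose in the latter. A match is a description of the letters and does not show that a factor binds.

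The wider pathways were described with 8 lists of 100 genes. Of these, 99 were found in the annotation and 57 (57.6%, all RefSeq genes 26.6%) held a DMR, with 89 losses and 82 gains. Without the 10 genes above, 48 of 89 genes (53.9%) held 67 losses and 70 gains. The list of VEGF receptors and coreceptors held 29 losses and 11 gains at 5 of 5 genes. Its coreceptors went in opposite directions. *Nrp1*, whose product enhances the binding of VEGFA to KDR, carried 11 losses and no gain (median -32.3), whereas *Nrp2*, the neuropilin of VEGFC and lymphatic EC, carried 9 gains and no loss (median 30.5). The VEGF ligands held 1 loss and 6 gains at 4 of 5 genes. Genes of VEGF receptor signalling held 27 losses and 38 gains at 22 of 31 genes, among them *Fyn*, a SRC family kinase, with 1 loss and 6 gains, and *Nfatc1*, a calcium-dependent transcription factor, with 2 losses and 5 gains.

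Angiopoietin ligands and TIE receptors held 4 losses and 5 gains at 5 of 6 genes, and TIE receptor signalling 4 losses and 1 gain at 3 of 8 genes. The FGF receptors and coreceptors held 1 loss and 6 gains at 3 of 7 genes, of which *Fgfr1* held 4. FGF ligands held a DMR at 6 of 22 genes (27.3%), close to the 26.6% of all genes, and 9 of their 15 DMRs were losses at *Fgf1* (median -27.0). FGF receptor signalling and feedback inhibitors held 14 losses and 9 gains at 9 of 15 genes, with 10 of the losses at *Spred2* (median -32.4), an inhibitor of RAS and MAPK signalling. The lists were not matched on gene length, which sets the size of the window searched.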

How the data were processed

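Methylation was measured by T-WGBS in sorted lung EC of 3 infant and 3 young adult samples, grouped by the age in the labels. According to the methods, the authors trimmed adaptors with SeqPrep, aligned to mm10 with BWA, removed duplicates and called DMRs with bsseq without smoothing (BWA 0.6.1, R 3.2.2 and bcl2fastq 1.8.4 are named in the submitters' processing notes). They required a coverage of 8-fold in at least 2 of 3 samples, at least 3 consecutive CpGs with p under 0.05 each, and a difference of at least 10%. The deposited values are the authors' group means as a fraction, multiplied here to percent. The depth behind each DMR is unknown.

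DMRs were placed by midpoint on 45657 curated RefSeq transcripts (GRCm38) of 26089 genes, with Python 3.11.15 and pandas 2.3.3. All 18333 DMRs began and ended at a CpG of this genome, and the sign of the difference was that of the direction column in 18333. Coordinates are 1-based and run to the last base of the last CpG. The assignment was tested on simulated regions. The 10 genes, the pathway lists, the motifs and the rules were chosen with earlier results of these data known. All 10 genes were named. Given in full were the largest loss and gain of each gene, DMRs within 1 kb of a TSS and exonic DMRs, beside the pathway genes with the most DMRs. Other single DMRs of *Kdr*, *Flt1*, *Pgf* and *Fgfr1* were described after their values were seen. The position of DMRs relative to the shorter transcripts was not part of the written design. The symbol *Spry3* matched no gene of the annotation used. Alternatives were other flanks, overlaps, thresholds, merging, the nearest TSS and the removal of *Flt1*.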

Additional observations from a re-analysis of the deposited data

How the results depend on the processing

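The counts at the 10 genes were recomputed under 8 other rules chosen with the design and under 1 added after seeing the data, the removal of *Flt1*. Of 54 values, 43 stayed within 1.5 times the count or within the interval of the value given. A further 8 moved beyond and 3 changed sign. The interval of the share of losses is wide, so 49.0% (flanks of 50 kb) and 50% (at least 5 CpGs) counted as staying within it. The interval of the median difference, -34.0 to 18.6, held the 3 medians that changed sign. With flanks of 50 kb the gains rose to 26 and the median difference was 12.5, not -26.0. With at least 5 CpGs, 2 DMRs remained, 1 loss and 1 gain at 2 genes, and the median was 11.1. Without *Flt1* there were 19 DMRs with 9 losses (47.4%), and the median was 16.3. The regions that each of these rules adds or removes account for the change. With gene bodies only, flanks of 5 kb, any overlap, a difference of at least 20%, merging within 500 bp or the nearest TSS, the losses numbered 17 to 22 and the gains 8 to 12. The pathway counts were recomputed with gene bodies only and a difference of at least 20%, and gave 80 to 84 losses and 55 to 66 gains. No paired analysis was possible because the list holds group means only, and fits that leave out a replicate were not run for the same reason. The unknown depth limits what an unlisted region shows.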

Other observations

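Between 10 and 50 kb from the 10 gene bodies lay 17 further DMRs, 14 gains and 3 losses. This split is close to that of all 4286 listed DMRs more than 10 kb from any gene body, of which 80.1% were gains. The sets differ, since some of the 17 lie inside other genes, namely 2 losses in *Cnot6* and a gain in *Mcph1*. At *Kdr*, whose body held 4 losses, 6 of 6 such DMRs were gains, with 5 of them 27.6 to 46.0 kb upstream. The other lay 11.05 kb downstream of the gene (chr5:75921756-75921799) and rose from 4.41% to 27.6%. It was the DMR closest to a gene outside the assignment window, and the farthest inside was that of *Flt4* at 5.21 kb. The largest gain upstream of *Kdr* (chr5:76024387-76024532) rose from 22.1% to 63.9%. Upstream of *Flt1* the farther DMRs were 3 gains and 1 loss, the largest gain 40.6 kb away, from 30.0% to 69.4%. *Tek*, with 1 exonic loss, had a gain 22.7 kb upstream, from 26.0% to 57.5%, and *Vegfa* a gain 16.7 kb upstream, from 76.9% to 89.4%. *Tie1* had no DMR within 10 kb and a gain 21.6 kb upstream, from 31.6% to 55.8%. The losses were at *Flt4*, with 2 in *Cnot6* downstream, and at *Flt1*. No test of the difference between bodies and surroundings was made.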
